A study of Homo sapiens with 32 samples.

Results

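The N-glycosylation machinery examined here comprised 44 genes, chosen by name for their place in the route that builds, transfers and trims N-linked glycans, out of 60660 gene identifiers in the count table. The route was divided into hexosamine supply (4 genes), dolichol supply (5), the dolichol-linked sugar donors (5), assembly of the lipid-linked oligosaccharide (12), the oligosaccharyltransferase (12) and glucose trimming (5), with the transporter MFSD2A standing alone. Messenger RNA had been sequenced in 32 libraries of HCT116, a human colorectal carcinoma line. All cells, parental ones included, carried a doxycycline-inducible OsTIR1 transgene (Tet-OsTIR1-PURO). Parental cells gave 4 libraries in DMSO and 4 in tunicamycin, from 2 parental samples. IGF2BP3 knockout cells (clones A3, D12 and E4) gave 6 and 6, and IGF2BP2 knockout cells (clones B7, F6 and G6) gave 6 and 6. IGF2BP3 and IGF2BP2 are related RNA-binding proteins, each disrupted with Cas9 in sorted single-cell clones, and clones A3 and E4, like B7 and F6, shared a guide. Tunicamycin was used at 5 µg/mL and for 4 h on parental and IGF2BP3 knockout cells, whose controls had DMSO diluted 1:1000, and the dose and time used for the IGF2BP2 knockout clones are not given in the sources used here. The labels do not say whether the 2 replicates of a line came from separate cultures, so the p-values measure only the spread between these libraries.

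N-linked glycosylation takes place in the endoplasmic reticulum. Sugars are added in turn to the lipid dolichol, and the oligosaccharyltransferase moves the finished oligosaccharide onto asparagines of newly made proteins. Glucosidases then trim its glucoses, which governs binding to the lectin chaperones calnexin and calreticulin. Tunicamycin is an analogue of UDP-N-acetylglucosamine that blocks DPAGT1, the enzyme of the opening step of assembly, and unglycosylated proteins then misfold and bring on the unfolded protein response.

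Total counts ran from 16651438 to 24913021 per library (median 21441775.5). Levels are given as CPM, counts per 1000000 after TMM scaling over all libraries. HSPA5, the main endoplasmic reticulum chaperone, stood at 774 to 1109 CPM in the 16 DMSO libraries and at 7917 to 10903 CPM in the 16 tunicamycin libraries. Both DMSO libraries of clone G6, whose treatment label conflicts with their title, lay in the former range. In DMSO, IGF2BP3 averaged 76.6 ± 6.36 CPM (SD, n = 4) in parental libraries and 27.7 ± 10.8 CPM (SD, n = 6) in those of its knockout. IGF2BP2 stood at 176 ± 17.9 CPM (SD, n = 4) and 86.3 ± 5.20 CPM (SD, n = 6) likewise. Of 6 epithelial markers, 5 averaged at least 1 CPM in every group, and VIL1 was near 0. Of 8 markers of other cell types, 1 averaged at least 1 CPM in each group. The 8 summed to 4.89 to 12.6 CPM per library.

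Of the 44 genes, 43 passed the filter on low counts and were tested. Genes are said to have risen or fallen where the adjusted p was under 0.05 in the quasi-likelihood test of edgeR, with Benjamini-Hochberg adjustment over all genes. In parental cells 18 of the 43 rose with tunicamycin, where 12.5% of all genes tested rose, and 3 fell, where 14.3% of all genes fell. Among the same genes 21 rose and 3 fell in IGF2BP3 knockout cells, against 16.2% and 17.6% of all genes. IGF2BP2 knockout cells had 22 that rose and 4 that fell, against 19.2% and 20.9% of all genes. The median log2 change of the 43 genes was 0.20, 0.17 and 0.14 in parental, IGF2BP3 knockout and IGF2BP2 knockout cells, and that of all genes tested was -0.01 in each. The parental count was 10 genes without parental sample 1 and 16 without sample 2, while calls over all genes went from 3854 to 970 and 1941. STT3A, whose parental call was lost without sample 1, changed by 0.45 to 0.48 in every alternative. Other genes with a lost parental call varied more. Over the alternatives ALG1 ran from -0.46 to -0.20, ALG5 from 0.33 to 0.56 and DHDDS from 0.10 to 0.30. Why calls were lost was not tested.

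The same 17 genes rose in all 3 genotypes, namely GFPT1, PGM3, UAP1, NUS1, DOLPP1, ALG5, DPAGT1, ALG2, ALG12, STT3A, STT3B, RPN1, DDOST, OSTC, MAGT1, UGGT1 and MFSD2A. DOLK and ALG1 fell in all 3. A further 9 passed the test in 1 or 2 genotypes, and 15 passed in none. A fit with replicate number as a block added ALG11, ALG8, GANAB, RPN2, TMEM258 and UGGT2 in parental cells, ALG11 and ALG13 in IGF2BP3 knockout cells and ALG3, DHDDS and MPDU1 in IGF2BP2 knockout cells, and ended no call. Of these additions ALG8, ALG3 and MPDU1 were lower and the others higher. The block added calls over all genes as well. Both directions occurred within steps, as the plot of changes by step shows.

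**Figure D1:**
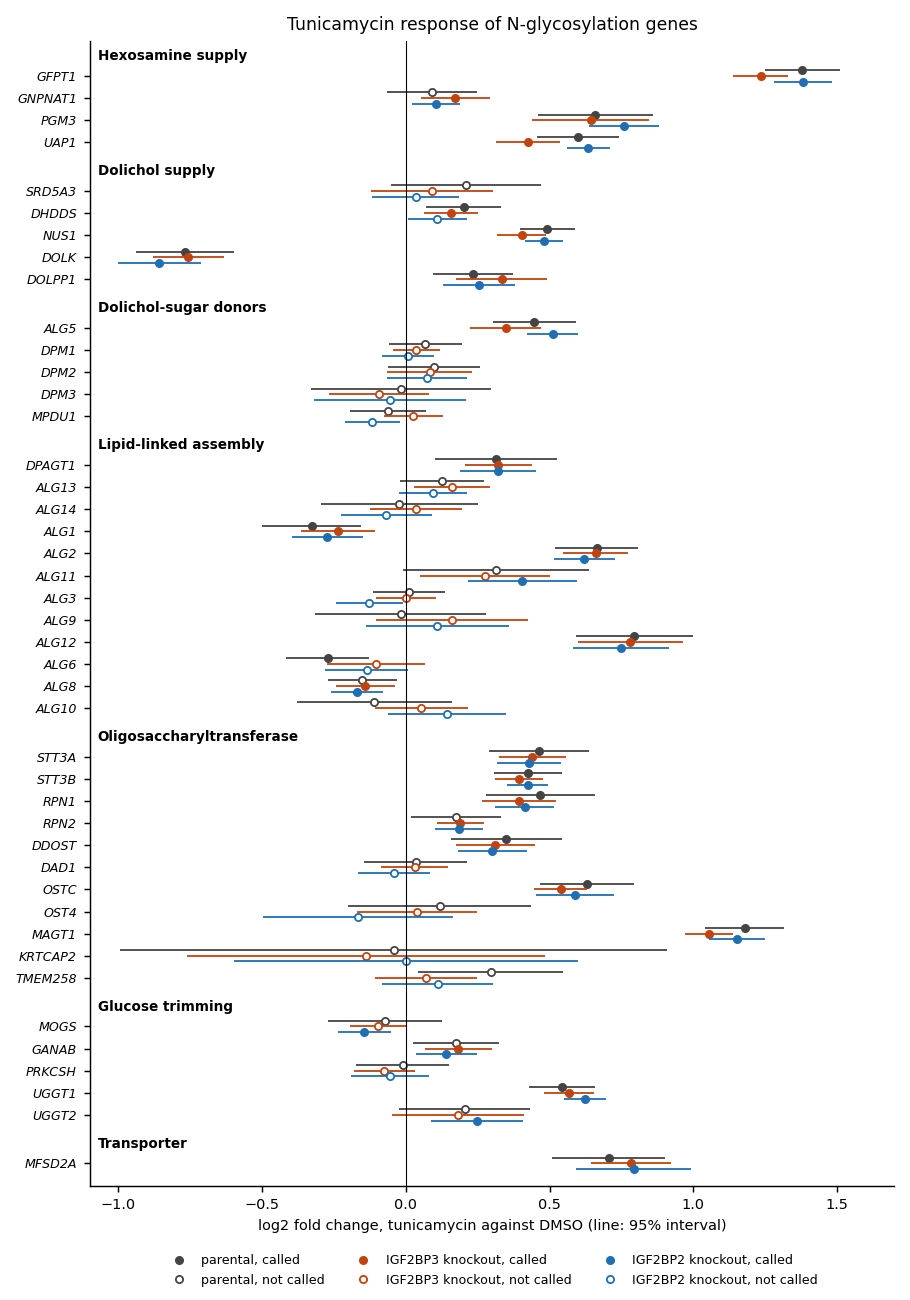
Log2 fold change of each of the 43 tested genes in tunicamycin against DMSO (x axis), grouped by step, in parental (grey), IGF2BP3 knockout (red) and IGF2BP2 knockout (blue) cells; lines are 95% intervals and filled points passed an adjusted p of 0.05. GFPT1 and MAGT1 lie above 1 in all 3 genotypes, and DOLK lies at -0.77, -0.76 and -0.86.

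Promoter sequence was searched for short motifs known from the unfolded protein response, since many of these genes moved together. RefSeq promoters (GRCh38.p14, 250 bases before to 50 after each start) were found for 39 of the 44 genes. The endoplasmic reticulum stress element, ERSE (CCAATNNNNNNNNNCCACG, either strand), was present in 1 of them, ALG12, and in 27 of 35116 promoters in the table (0.0769%). Of all tested genes with a promoter in the table, 0.156% held it. HSPA5 and the lectins CALR and CANX, whose promoters also held it, are shown beside ALG12 for comparison, with the fixed ends of the element in capitals.
ALG12: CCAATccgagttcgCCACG
HSPA5: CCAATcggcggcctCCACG
CALR: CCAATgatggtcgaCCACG
CANX: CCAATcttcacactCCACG
The element of ALG12 lies at chr22:49918554-49918572, from 134 to 116 bases before the start. Exons of CRELD2 on the opposite strand overlap those of ALG12 by 168 bases, and the level of CRELD2, which rose as well, is given below. Which of these genes the element serves was not tested. DHDDS was the only one of the 39 with TGACGTGG, the core of the unfolded protein response element (either strand, 0.729% of all promoters). Among all tested genes with a promoter in the table, 1.2% had TGACGTGG. Neither ERSE-II (ATTGG and CCACG 1 base apart) nor the CARE motif TGATGNAAT was found in any of the 39. ACGTGG, a shorter form contained in TGACGTGG and searched after the data had been seen, was present in 16 of 39 genes (41.0%) and in 15.6% of all tested genes with a promoter in the table. By response it was present in 6 of 15 genes that rose in all 3 genotypes, in both that fell, in 4 of 8 that passed in 1 or 2 genotypes and in 4 of 14 that passed in none. A match to these letters is not a measured binding site.

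The promoters of ALG12, of GFPT1 and DOLK, which had the largest rise and the largest fall, and of DHDDS are printed on the strand of the gene, with the ERSE ends of ALG12, the ACGTGG match (as CCACGT) of GFPT1 and DOLK and the TGACGTGG match (as CCACGTCA) of DHDDS in capitals. They cover chr22:49918389-49918688, chr2:69387178-69387477 and chr9:128947554-128947853 on the minus strand and chr1:26432071-26432370 on the plus strand.
ALG12: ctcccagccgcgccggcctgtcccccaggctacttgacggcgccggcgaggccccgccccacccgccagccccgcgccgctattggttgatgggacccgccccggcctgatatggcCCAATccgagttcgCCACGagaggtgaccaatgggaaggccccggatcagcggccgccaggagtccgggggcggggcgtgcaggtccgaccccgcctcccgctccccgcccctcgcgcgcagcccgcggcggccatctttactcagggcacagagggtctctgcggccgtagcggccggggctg
GFPT1: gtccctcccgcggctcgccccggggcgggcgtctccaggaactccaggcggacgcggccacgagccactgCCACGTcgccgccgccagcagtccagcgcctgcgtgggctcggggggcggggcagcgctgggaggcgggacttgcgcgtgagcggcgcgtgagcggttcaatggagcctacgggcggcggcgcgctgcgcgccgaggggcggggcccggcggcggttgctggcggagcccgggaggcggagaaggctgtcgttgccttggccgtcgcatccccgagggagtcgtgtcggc
DOLK: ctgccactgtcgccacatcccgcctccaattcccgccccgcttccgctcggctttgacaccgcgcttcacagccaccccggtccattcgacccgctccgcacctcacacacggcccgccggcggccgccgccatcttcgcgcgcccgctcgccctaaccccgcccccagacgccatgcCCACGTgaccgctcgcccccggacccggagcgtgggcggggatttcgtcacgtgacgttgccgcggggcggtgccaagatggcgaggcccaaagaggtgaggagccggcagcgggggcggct
DHDDS: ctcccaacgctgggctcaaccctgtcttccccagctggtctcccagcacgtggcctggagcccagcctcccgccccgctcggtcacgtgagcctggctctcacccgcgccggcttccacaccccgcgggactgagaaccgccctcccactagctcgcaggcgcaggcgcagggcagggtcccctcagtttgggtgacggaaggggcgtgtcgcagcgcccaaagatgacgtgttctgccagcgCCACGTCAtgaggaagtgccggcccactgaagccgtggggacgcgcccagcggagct
GFPT1 rose and DOLK fell, and whether the ACGTGG letters act on either gene was not tested.

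Hexosamine supply, which makes the UDP-N-acetylglucosamine that DPAGT1 uses, had the highest median change of the multi-gene steps in each genotype. Of its 4 genes, 3 rose in parental cells, where 12.5% of all genes rose. All 4 rose in each knockout, where 16.2% (IGF2BP3) and 19.2% (IGF2BP2) of all genes rose. GFPT1 (ENSG00000198380_13, chr2:69319769-69387254 in GENCODE 29), the rate-limiting entry enzyme, had the largest change of all 43 genes in each genotype. Its parental DMSO libraries read 112 and 103 CPM for sample 1 and 106 and 102 CPM for sample 2, and its tunicamycin libraries read 306 and 287 CPM and 247 and 260 CPM (replicates 1 and 2). IGF2BP3 knockout libraries ran from 96.2 to 113 CPM (median 105) in DMSO and from 229 to 264 CPM (median 247) in tunicamycin. IGF2BP2 knockout libraries ran from 88.8 to 109 CPM (median 99.8) and from 240 to 271 CPM (median 258). Every tunicamycin library of each genotype lay above every DMSO library. The log2 change was 1.38 (SE 0.0578, adjusted p 1.84e-07), 1.24 (SE 0.0445, adjusted p 4.76e-11) and 1.38 (SE 0.0473, adjusted p 1.76e-11) in parental, IGF2BP3 and IGF2BP2 knockout cells in the quasi-likelihood test of edgeR.

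PGM3, which moves the phosphate of N-acetylglucosamine phosphate, rose by log2 0.66, 0.64 and 0.76 in parental, IGF2BP3 and IGF2BP2 knockout cells. UAP1, which makes the nucleotide sugar itself, rose by 0.60, 0.43 and 0.64. In both genes the groups did not overlap in any genotype. The parental call of PGM3 was lost without parental sample 1 (adjusted p 0.0639, edgeR). GNPNAT1, the acetyltransferase between GFPT1 and PGM3, differed from its neighbours: its changes were 0.09, 0.17 and 0.10, DMSO and tunicamycin libraries overlapped in every genotype, and it passed the test only in the knockouts (adjusted p 0.0291 and 0.0456, edgeR). The IGF2BP2 knockout call of GNPNAT1 was lost without the conflicting G6 libraries (adjusted p 0.0687) and without any of the 3 lines (up to 0.308), and the IGF2BP3 knockout call without line D12 (0.147) or E4 (0.118), all in edgeR.

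Dolichol supply held changes in both directions. NUS1 and DHDDS are the subunits of the enzyme that builds the dolichol chain, and NUS1 rose by 0.49, 0.40 and 0.48 with no overlap between treatments. DHDDS changed by 0.20, 0.16 and 0.11 and passed in parental and IGF2BP3 knockout cells, but its parental call was lost without parental sample 1 or 2 (adjusted p 0.116 and 0.559, edgeR). Its IGF2BP3 knockout call was lost without line A3 or E4 (adjusted p 0.0718 and 0.0653, edgeR). DOLPP1, which recycles the dolichol carrier, rose by 0.23, 0.33 and 0.25, and its parental call was lost without parental sample 1 or 2 (adjusted p 0.22 and 0.303, edgeR). Single libraries also ended parental calls: DHDDS without replicate 1 of sample 1 or either replicate of sample 2 (0.123, 0.129 and 0.138), and DOLPP1 without replicate 1 of sample 1 or replicate 2 of sample 2 (0.115 and 0.126). SRD5A3, which serves the last steps of dolichol formation, changed by 0.21, 0.09 and 0.04 and passed in no genotype.

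DOLK (ENSG00000175283_8, chr9:128945530-128947619), the kinase that makes dolichyl phosphate, went against its step. In parental DMSO it read 19.9 and 20.6 CPM for sample 1 and 21.7 and 19.3 CPM for sample 2, and in tunicamycin 12.3 and 10.4 CPM and 12.6 and 12.5 CPM. Those of IGF2BP3 knockout ran from 17.5 to 20.8 CPM (median 18.5) in DMSO and from 10.5 to 12.1 CPM (median 11.1) in tunicamycin, and IGF2BP2 knockout libraries from 17.4 to 20.6 CPM (median 18.9) and from 9.0 to 11.5 CPM (median 10.5). All tunicamycin libraries lay below all DMSO libraries in each genotype. In the quasi-likelihood test of edgeR the log2 change was -0.77 (SE 0.0765, adjusted p 5.88e-05), -0.76 (SE 0.0576, adjusted p 1.35e-07) and -0.86 (SE 0.0674, adjusted p 1.38e-07). The response lay between -0.98 (clone G6) and -0.70 (parental sample 2) over the 8 lines.

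Among the dolichol-linked sugar donors only ALG5 passed the test. ALG5, which makes dolichyl phosphate glucose, rose in each genotype. Its parental DMSO libraries read 29.98 and 29.02 CPM for sample 1 and 28.7 and 30.9 CPM for sample 2, and its tunicamycin libraries 43.9 and 42.9 CPM and 38.1 and 36.6 CPM. IGF2BP3 knockout libraries ran from 28.0 to 33.4 CPM (median 29.6) and from 35.1 to 41.2 CPM (median 38.4), and IGF2BP2 knockout libraries from 27.5 to 31.2 CPM (median 29.6) and from 39.1 to 45.6 CPM (median 41.4). The treatments did not overlap in any genotype. The log2 changes were 0.45 (SE 0.0648, adjusted p 0.000658), 0.35 (SE 0.0575, adjusted p 0.000275) and 0.51 (SE 0.0417, adjusted p 2.05e-07) in the quasi-likelihood test of edgeR, and the parental call was lost without parental sample 1 (adjusted p 0.126). DPM1, the catalytic subunit of dolichyl phosphate mannose synthase, changed by 0.07, 0.04 and 0.01, and its partners DPM2 and DPM3 lay between -0.09 and 0.10. MPDU1, which is needed to use these donors, changed by -0.06, 0.03 and -0.12. Libraries of these 4 genes overlapped between treatments in every genotype.

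In assembly of the lipid-linked oligosaccharide 3, 3 and 4 of 12 genes rose, where 12.5%, 16.2% and 19.2% of all genes rose. In each genotype 2 of the 12 fell, where 14.3%, 17.6% and 20.9% of all genes fell. DPAGT1 (ENSG00000172269_19, chr11:119096503-119108331), the target of tunicamycin, rose by a modest amount. Its parental DMSO libraries read 25.6 and 27.6 CPM for sample 1 and 27.8 and 31.4 CPM for sample 2, and its tunicamycin libraries 29.9 and 38.6 CPM and 33.9 and 36.7 CPM. IGF2BP3 knockout libraries ran from 27.3 to 33.1 CPM (median 30.3) in DMSO and from 36.7 to 38.7 CPM (median 37.9) in tunicamycin. In IGF2BP2 knockout cells they ran from 26.4 to 32.9 CPM (median 29.6) and from 29.6 to 42.2 CPM (median 36.9). The treatments were separated in IGF2BP3 knockout cells and overlapped in the other two genotypes. The log2 change was 0.31 (SE 0.0952, adjusted p 0.0351), 0.32 (SE 0.0543, adjusted p 0.000324) and 0.32 (SE 0.0616, adjusted p 0.000727) in the quasi-likelihood test of edgeR. The parental call of DPAGT1 was lost without parental sample 1 or 2 (adjusted p 0.304 and 0.143, edgeR), and without replicate 2 of sample 1 (0.0793) or replicate 1 of sample 2 (0.0516). Exons of C2CD2L on the opposite strand cover 21.3% of the exon length of DPAGT1, and C2CD2L stood at 15.2 ± 1.27 and 17.7 ± 2.06 CPM (SD, n = 4) in parental DMSO and tunicamycin libraries. Whether counting used the strand is not given in the sources used here, and the part of such overlaps in the result was not tested.

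ALG12 (ENSG00000182858_14, chr22:49900229-49918458), which adds a mannose late in assembly inside the endoplasmic reticulum, had the largest change of this step. Its parental DMSO libraries read 7.01 and 6.0 CPM for sample 1 and 6.59 and 7.21 CPM for sample 2, against 10.99 and 10.98 CPM and 12.8 and 11.7 CPM in tunicamycin. The range in IGF2BP3 knockout was from 5.49 to 7.60 CPM (median 6.43) and from 10.1 to 12.4 CPM (median 10.9), and IGF2BP2 knockout libraries from 5.83 to 7.29 CPM (median 6.95) and from 10.3 to 12.7 CPM (median 11.4). Treatments did not overlap in any genotype. The changes were 0.80 (SE 0.0901, adjusted p 0.000139), 0.78 (SE 0.085, adjusted p 5.44e-06) and 0.75 (SE 0.0774, adjusted p 2.38e-06) in the quasi-likelihood test of edgeR. CRELD2, an endoplasmic reticulum protein gene on the opposite strand whose exons cover 3.1% of the exon length of ALG12, went from 38.4 ± 3.46 to 153 ± 6.96 CPM (SD, n = 4) in parental cells.

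ALG2, which adds the next mannoses after ALG1, rose by 0.66, 0.66 and 0.62, also without overlap. ALG11, the mannosyltransferase after ALG2, changed by 0.31, 0.28 and 0.41 and passed only in IGF2BP2 knockout cells, where the call was lost without line B7 (adjusted p 0.0504, edgeR); 39.7% of its exon length is shared with UTP14C on the same strand, listed at 0 in every library. ALG1, which adds the innermost mannose, fell by 0.33, 0.24 and 0.27, and its response was negative in all 8 lines. Its parental values were 33.6 and 31.3 CPM for sample 1 and 33.3 and 30.9 CPM for sample 2 in DMSO, and 24.5 and 22.5 CPM and 30.3 and 25.7 CPM in tunicamycin. Sample 1 fell further than sample 2, by 0.46 against 0.20, and the parental call was lost without sample 1 (adjusted p 0.429, edgeR) or either of its replicates (0.0831 and 0.0646). Its IGF2BP3 knockout libraries ran from 29.3 to 35.1 CPM (median 32.2) and from 23.6 to 31.2 CPM (median 26.9), and IGF2BP2 knockout libraries from 27.42 to 33.7 CPM (median 29.7) and from 23.1 to 27.45 CPM (median 25.1). In the knockouts the treatments overlapped, and the IGF2BP3 knockout call was lost without line D12 or E4 (adjusted p 0.0877 and 0.0537, edgeR).

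The glucosyltransferases ALG6, ALG8 and ALG10 did not share the rise of ALG12. ALG8 read 35.3 and 35.3 CPM for sample 1 and 34.2 and 32.3 CPM for sample 2 in parental DMSO libraries, and 29.9 and 31.4 CPM and 31.3 and 30.5 CPM in tunicamycin. In IGF2BP3 knockout it ran from 33.7 to 36.2 CPM (median 35.2) and from 30.1 to 33.5 CPM (median 31.6), and in IGF2BP2 knockout from 35.9 to 36.5 CPM (median 36.2) and from 29.5 to 34.3 CPM (median 32.4). All tunicamycin libraries lay below all DMSO libraries in each genotype. ALG8 changed by -0.15, -0.14 and -0.17 and passed in both knockouts (adjusted p 0.0343 and 0.00533 by edgeR) but not in parental cells (adjusted p 0.0657). Its IGF2BP3 knockout call was lost with DESeq2 (adjusted p 0.0597), without any of the 3 lines (up to 0.203 in edgeR) and without single replicates of D12 or E4 (up to 0.133), and its IGF2BP2 knockout call without line B7 or G6 (0.0552 and 0.0537). ALG6 read 21.4 and 21.2 CPM for sample 1 and 21.7 and 22.4 CPM for sample 2 in parental DMSO libraries, against 17.7 and 18.6 CPM and 17.1 and 18.2 CPM in tunicamycin. The IGF2BP3 knockout values, from 18.1 to 22.5 CPM (median 19.4) and from 15.1 to 20.2 CPM (median 19.4), overlapped. So did those of IGF2BP2 knockout, from 18.3 to 25.5 CPM (median 22.9) and from 17.3 to 22.8 CPM (median 21.5). ALG6 changed by -0.27, -0.10 and -0.14 and passed in parental cells only (adjusted p 0.0109, edgeR); the call was lost without parental sample 1 or 2 (adjusted p 0.18 and 0.206, edgeR) or replicate 1 of sample 1 (0.0557). Neither contrast between genotypes passed a test of the difference. ALG10 changed by -0.11, 0.05 and 0.14 and passed in none, and its near-identical copy ALG10B makes its count uncertain. ALG13 and ALG14, which together add the next sugar after DPAGT1, ALG3 and ALG9 passed in no genotype, with changes between -0.13 and 0.16.

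The oligosaccharyltransferase had 6, 7 and 7 of its 11 tested subunits higher and none lower in parental, IGF2BP3 and IGF2BP2 knockout cells. Of all genes tested, 12.5%, 16.2% and 19.2% rose and 14.3%, 17.6% and 20.9% fell. The enzyme exists as complexes built on the catalytic subunit STT3A, which works beside the translocon, or STT3B, which serves sites that were skipped. STT3A rose by 0.46, 0.44 and 0.43 and STT3B by 0.43, 0.39 and 0.42, with no overlap between treatments in any genotype. The shared subunits RPN1 and DDOST rose by 0.47, 0.39 and 0.41 and by 0.35, 0.31 and 0.30. The parental calls of STT3A, STT3B, RPN1 and DDOST were each lost without parental sample 1, with adjusted p values of 0.0719, 0.0672, 0.097 and 0.156 (edgeR); that of DDOST was also lost without sample 2 (0.131). OSTC, a subunit of the STT3A complex, rose by 0.63, 0.54 and 0.59. RPN2 changed by 0.17, 0.19 and 0.18 and passed in both knockouts only.

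MAGT1 (ENSG00000102158_20, chrX:77826364-77895593), an oxidoreductase subunit of the STT3B complex, changed most. Parental DMSO libraries read 94.5 and 81.6 CPM for sample 1 and 97.6 and 85.5 CPM for sample 2, and tunicamycin libraries 215 and 200.2 CPM and 204 and 193 CPM. IGF2BP3 knockout libraries ran from 83.8 to 103 CPM (median 92.1) and from 180.0 to 207 CPM (median 192), and IGF2BP2 knockout libraries from 82.9 to 95.1 CPM (median 89.2) and from 184 to 223 CPM (median 195). Every tunicamycin library lay above every DMSO library of its genotype. The log2 changes were 1.18 (SE 0.0614, adjusted p 7.85e-07), 1.06 (SE 0.0391, adjusted p 6.04e-11) and 1.15 (SE 0.0454, adjusted p 8.53e-11) in the quasi-likelihood test of edgeR.

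TUSC3, the alternative to MAGT1 in the same complex, was not tested: it ran from 0 to 0.433 CPM over all libraries. The small subunits did not follow MAGT1. DAD1 changed by 0.03, 0.03 and -0.04, OST4 by 0.12, 0.04 and -0.17 and TMEM258 by 0.30, 0.07 and 0.11, and none passed in any genotype. KRTCAP2, of the STT3A complex, changed by -0.04, -0.14 and 0.00 with wide intervals, from -0.99 to 0.91 in parental cells. Its level was higher in replicate 2 than in replicate 1 in all 16 combinations of line and treatment (mean 4.83 against 2.46 CPM), and STT3A, RPN2, DDOST, DAD1, GANAB and PRKCSH were lower in replicate 2 in all 16. Replicate number was thus associated with the level of these genes, and its part in the results was not tested beyond the fit with a replicate block. Per kilobase of exon, DDOST stood highest among subunits in parental DMSO libraries, at 120 ± 12.9 CPM per kb (SD over 4 libraries), and MAGT1 at 18.5 ± 1.55, against 0.925 ± 0.395 for KRTCAP2. In tunicamycin MAGT1 stood at 41.7 ± 1.88 CPM per kb (SD, n = 4), above STT3A at 38.1 ± 2.77, where in DMSO STT3A had stood at 27.7 ± 3.15. The SDs of MAGT1 and STT3A in tunicamycin overlap. Exon length pools all annotated exons of a gene, so the order of genes depends on it. In CPM the same libraries read 261 to 303 for STT3A and 193 to 215 for MAGT1. KRTCAP2 shares 18.4% of its exon length with AL713999.1 on the same strand, listed at 0.

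**Figure D2:**
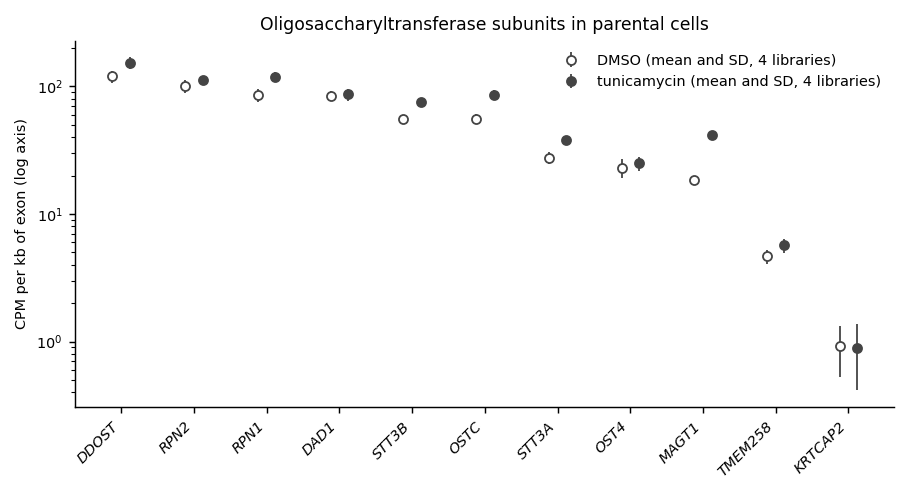
CPM per kilobase of exon (y axis, log scale) of the oligosaccharyltransferase subunits in parental libraries, DMSO open and tunicamycin filled, as mean and SD of 4 libraries; TUSC3, at 0 in some libraries, is not drawn. MAGT1 moves from 18.5 to 41.7 CPM per kb, whereas DAD1 stays within its SD.

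Glucose trimming was led by UGGT1, which puts a glucose back on misfolded glycoproteins. UGGT1 (ENSG00000136731_13, chr2:128091200-128195677) read 182 and 167 CPM for sample 1 and 179 and 167 CPM for sample 2 in parental DMSO libraries, and 263 and 262 CPM and 236 and 249.9 CPM in tunicamycin. Its IGF2BP3 knockout libraries lay from 160.3 to 187 CPM (median 171) and from 250.5 to 259 CPM (median 254), and IGF2BP2 knockout libraries from 152 to 173 CPM (median 167) and from 248 to 259.9 CPM (median 253). No library of either treatment reached the other treatment's range. The changes were 0.54 (SE 0.0507, adjusted p 3.79e-05), 0.57 (SE 0.0402, adjusted p 6.54e-08) and 0.62 (SE 0.0337, adjusted p 2.62e-09) in the quasi-likelihood test of edgeR. Its homologue UGGT2 changed by 0.20, 0.18 and 0.25 and passed only in IGF2BP2 knockout cells. GANAB, the catalytic subunit of glucosidase II, changed by 0.17, 0.18 and 0.14 and passed in both knockouts, and its partner PRKCSH changed by -0.01, -0.08 and -0.05 and passed in none. MOGS, glucosidase I, read 70.1 and 65.5 CPM for sample 1 and 65.7 and 66.2 CPM for sample 2 in parental DMSO libraries, and 55.8 and 73.4 CPM and 58.3 and 66.1 CPM in tunicamycin. It ran from 62.6 to 70.6 CPM (median 66.0) and from 58.2 to 65.8 CPM (median 62.1) in IGF2BP3 knockout, and from 62.4 to 75.5 CPM (median 67.6) and from 55.3 to 72.7 CPM (median 61.1) in IGF2BP2 knockout. Treatments overlapped in every genotype, and MOGS changed by -0.07, -0.10 and -0.14 and passed only in IGF2BP2 knockout cells. The IGF2BP2 knockout calls of UGGT2, GANAB and MOGS were each lost without the conflicting G6 libraries (adjusted p 0.155, 0.0955 and 0.0593, edgeR) and without line B7 (0.0618, 0.0965 and 0.155). That of GANAB was also lost without F6 or G6 (0.162 and 0.0918), that of UGGT2 without G6 (0.179), and the IGF2BP3 knockout call of GANAB without D12 or E4 (0.0596 and 0.108). Single replicates of lines B7, F6 or G6 ended the GANAB call (up to 0.0638), and replicate 1 of B7 that of MOGS (0.0667).

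MFSD2A (ENSG00000168389_18, chr1:39955112-39969968), a lipid transporter known to be needed for the uptake of tunicamycin, rose in each genotype. Parental DMSO libraries read 15.7 and 14.9 CPM for sample 1 and 12.8 and 14.8 CPM for sample 2, and tunicamycin libraries 21.8 and 26.6 CPM and 24.0 and 22.2 CPM. IGF2BP3 knockout libraries ran from 10.9 to 15.6 CPM (median 13.0) and from 20.5 to 26.1 CPM (median 21.6). In IGF2BP2 knockout cells they ran from 8.42 to 14.6 CPM (median 11.3) and from 16.1 to 24.1 CPM (median 19.2). The treatments did not overlap. The changes were 0.71, 0.78 and 0.79, with adjusted p values that passed in the quasi-likelihood test of edgeR in each genotype and in every alternative.

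**Figure D3:**
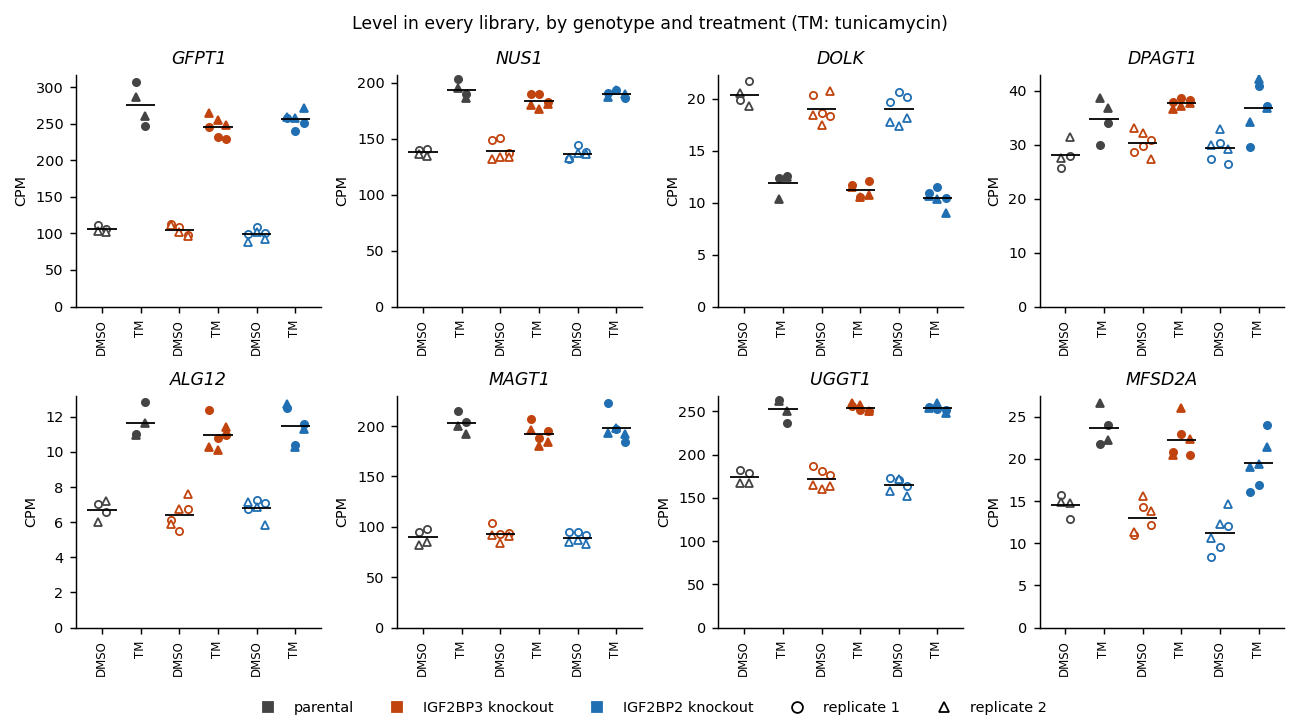
CPM in each library (y axis, from 0) of 8 genes in DMSO (open) and tunicamycin (filled, TM) for the 3 genotypes; circles are replicate 1, triangles replicate 2, points of a line share an x position and bars are group means. GFPT1, NUS1, ALG12, MAGT1, UGGT1 and MFSD2A lie higher in tunicamycin without overlap, DOLK lies lower, and DPAGT1 overlaps in parental and IGF2BP2 knockout cells.

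The steps were then compared between genotypes. The median log2 change of hexosamine supply was 0.63 in parental, 0.53 in IGF2BP3 knockout and 0.70 in IGF2BP2 knockout cells. Taken per pair of libraries (a line and replicate number), that median was 0.62 ± 0.16 (SD, n = 4), 0.52 ± 0.19 (SD, n = 6) and 0.69 ± 0.06 (SD, n = 6), so the genotypes overlapped. The oligosaccharyltransferase had medians of 0.35, 0.31 and 0.30, and per pair 0.36 ± 0.04, 0.30 ± 0.06 and 0.34 ± 0.04. Dolichol supply had 0.21, 0.16 and 0.11, and per pair 0.20 ± 0.10, 0.19 ± 0.11 and 0.12 ± 0.11. Glucose trimming had 0.17, 0.18 and 0.14, and per pair 0.14 ± 0.05, 0.09 ± 0.07 and 0.10 ± 0.08. Its parental median was 0.11 without parental sample 1 and 0.12 without its replicate 2 alone, and its IGF2BP3 knockout median 0.11 without replicate 2 of E4. The sugar donors (0.07, 0.04 and 0.01) and assembly (0.00, 0.11 and 0.10) had medians near 0, where genes that rose and genes that fell stood side by side. These medians describe genes chosen by name and carry no test. For IGF2BP2 knockout cells the dose and time of tunicamycin are not given and cannot be told apart from genotype.

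**Figure D4:**
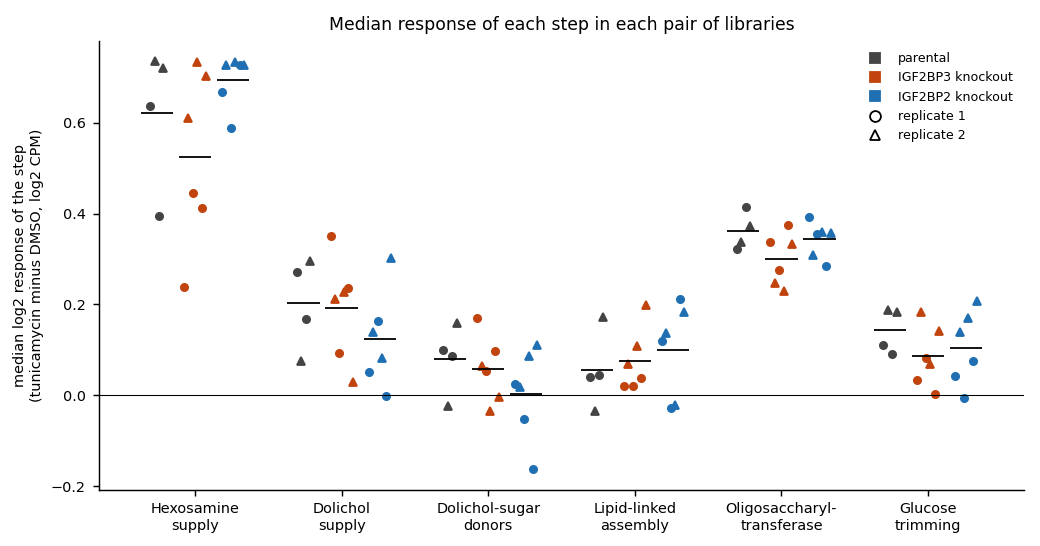
Median log2 change of the genes of each step (y axis) in each pair of libraries of one line and replicate number; circles are replicate 1, triangles replicate 2, bars are means, and colours are the genotypes. Hexosamine supply has the highest mean of the 6 steps drawn in each genotype, its lowest IGF2BP3 knockout pair (0.24) lies among those of the oligosaccharyltransferase (up to 0.37), and the genotypes overlap in every step.

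No gene of the machinery differed between genotypes in its response to tunicamycin by the interaction test. In IGF2BP3 knockout against parental cells 0 of 43 passed in edgeR (Benjamini-Hochberg) and 0 in DESeq2, where 0.0% of all genes passed, and 0 had an unadjusted p under 0.05, against 1.67% of all genes. In IGF2BP2 knockout against parental cells the counts were 0, 0 and 0, with 0.0% of all genes and 1.4% unadjusted. Between the knockouts 0 of 43 passed by either tool, with 0.0% of all genes, and 4 genes (UAP1, MPDU1, ALG5 and GFPT1) had an unadjusted p under 0.05, against 1.82% of all genes. A p that misses the threshold does not show that responses were alike, and the intervals bound what remains possible. GFPT1 responded by 0.14 less on the log2 scale in IGF2BP3 knockout than in parental cells, with a 95% interval from -0.28 to 0.01. UAP1 differed by -0.17 (from -0.34 to 0.01) and MAGT1 by -0.12 (from -0.26 to 0.03). For DPAGT1 the difference was 0.02 in IGF2BP3 knockout (from -0.20 to 0.23) and 0.01 in IGF2BP2 knockout (from -0.21 to 0.23). IGF2BP3 knockout minus IGF2BP2 knockout gave -0.20 for UAP1 (from -0.33 to -0.07, unadjusted p 0.00408, adjusted p 0.999928 in the quasi-likelihood test of edgeR). Dose and time are not given for the IGF2BP2 knockout clones, so in contrasts with them genotype cannot be told apart from dose and time.

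**Figure D5:**
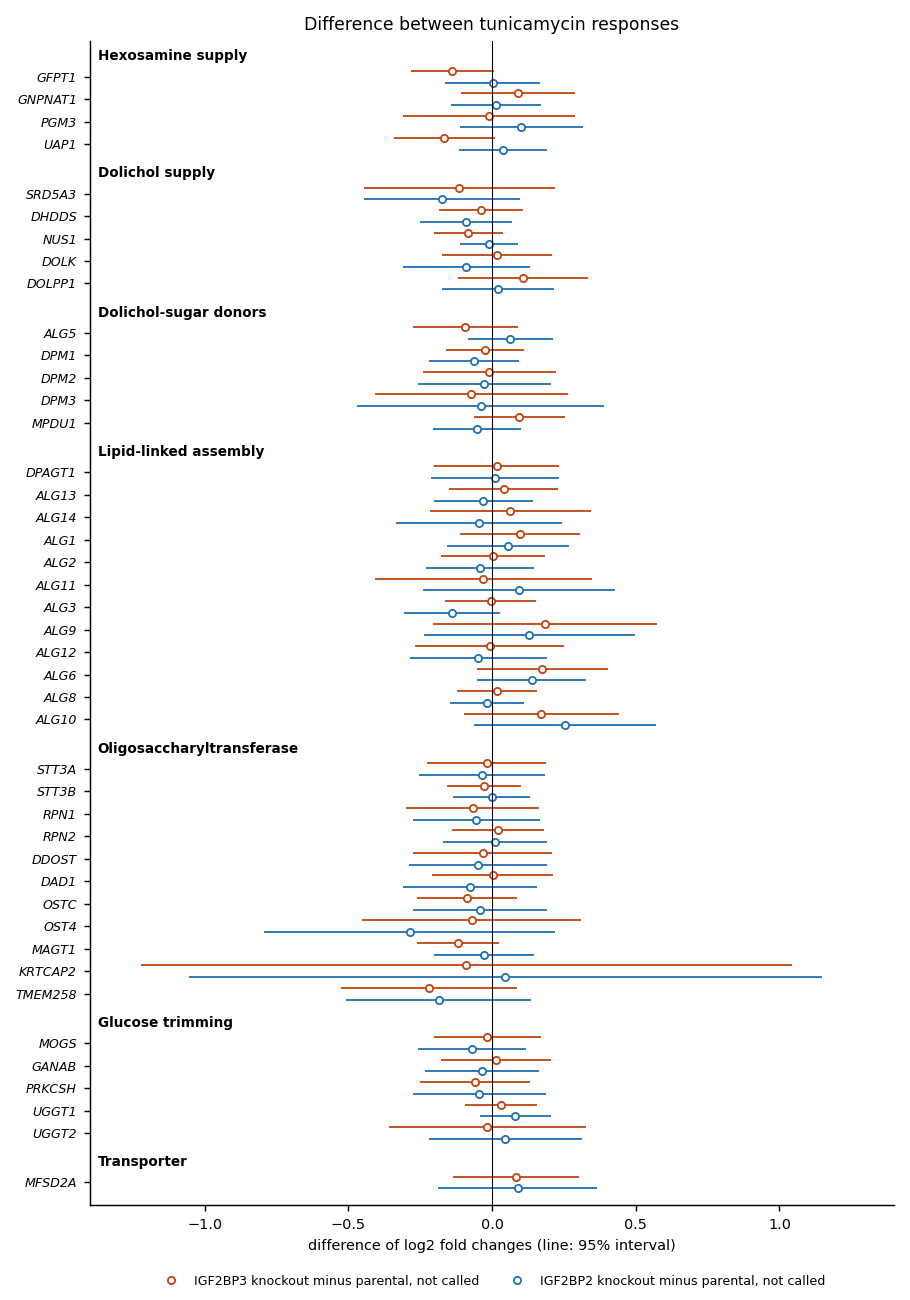
Difference between log2 responses of each knockout and parental cells for the 43 tested genes (x axis), with 95% intervals, grouped by step. All points are open, since none passed, and the interval of GFPT1 in IGF2BP3 knockout runs from -0.28 to 0.01.

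Levels were also compared between genotypes at each treatment. In DMSO 0 of 43 genes differed between IGF2BP3 knockout and parental cells in edgeR and 0 in DESeq2, where 1.61% of all genes did in edgeR, and 4 had an unadjusted p under 0.05, against 13.7% of all genes. By DESeq2 200 of all 14568 genes tested were higher and 307 lower. IGF2BP2 knockout and parental cells in DMSO gave 0 with either tool, against 0.0137% of all genes in edgeR, and 2 unadjusted (MPDU1 and MFSD2A), against 4.74%. Of all 14564 genes tested there, DESeq2 called 2 higher and 10 lower. With tunicamycin IGF2BP3 knockout gave 0 by edgeR, against 0.718% of all genes, with 7 unadjusted, against 10.3%. By DESeq2 it gave 1, where 84 of all 14626 genes tested were higher and 186 lower. IGF2BP2 knockout with tunicamycin gave 0 with either tool, against 0.00694% of all genes in edgeR, and again MPDU1 and MFSD2A unadjusted, against 6.97%.

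OSTC was the closest to a call. It stood at 125 to 151 CPM (median 140) in parental tunicamycin libraries and at 114 to 126 CPM (median 121) in those of IGF2BP3 knockout, and the ranges met only at their edges. The log2 difference was -0.21 (SE 0.055, adjusted p 0.138 by edgeR). It passed with DESeq2 (adjusted p 0.0421) and with the replicate block (adjusted p 0.0222), and ran from 0.00177 to 0.842 over all alternatives. With the block PRKCSH passed as well (adjusted p 0.0471, log2 difference -0.17). Replicates of a line share that line, and neither gene passed once the counts of each line had been added up (adjusted p 0.242 for OSTC and 0.343 for PRKCSH, edgeR).

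The other genes of the pathway were taken from lists of 12 supply, 12 lectin and mannosidase, 4 deglycosylation, 16 Golgi and 2 O-GlcNAc genes. Lectins and mannosidases of the endoplasmic reticulum, which sort glycoproteins for folding or disposal, had 11 of 12 higher in each genotype. Only MAN1B1 did not pass. In parental, IGF2BP3 and IGF2BP2 knockout cells 12.5%, 16.2% and 19.2% of all genes rose. EDEM1, which commits glycoproteins to degradation, rose by 2.25, 2.31 and 2.45, CALR by 1.32, 1.17 and 1.28 and CANX by 0.57, 0.55 and 0.57. In the supply list GMPPB, which makes GDP-mannose and shares 42.3% of its exon length with AMIGO3, rose by 1.14, 1.19 and 1.12, and UAP1L1, a relative of UAP1, fell by 1.21, 1.02 and 1.12. In all, 4 of the 12 supply genes rose and 3 fell in each genotype. In Golgi processing 2 of 14 tested genes rose in each genotype and 3, 5 and 6 fell. Beside both lists, 12.5%, 16.2% and 19.2% of all genes rose and 14.3%, 17.6% and 20.9% fell. Among the Golgi genes that fell was MGAT4B, which adds branches to glycans, by 0.88, 0.84 and 0.85.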

How the data were processed

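Counts per gene, as deposited, are whole numbers for 32 libraries of poly(A) RNA made with a directional kit per the labels' protocols. STAR 2.7.5c and hg38 are named in the submitters' processing notes without a role; the counting tool, annotation and use of strand are not given in the sources used here. Groups came from sample titles, also for the control libraries of clone G6, whose treatment characteristic says tunicamycin. Symbols were matched to Ensembl identifiers, and exon lengths and overlaps came from GENCODE 29.

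Each comparison was fitted over all genes with edgeR 4.0.16 in R 4.3.3 (TMM, filterByExpr, quasi-likelihood test, Benjamini-Hochberg threshold 0.05), with line as a term for responses and their differences. Per pair of libraries, changes are differences of log2 CPM with a prior count of 2. Fits were tested on simulated data. Alternatives were DESeq2 1.42.0, its size factors, other filters, a replicate block, all libraries in one fit, no line term, summed counts per line for genotype levels, and lines, replicates or the G6 controls left out. Deviations of same-numbered libraries correlated at 0.0878 to 0.549 (median 0.375), with 119 of 120 pairs over 0.1, so libraries of one replicate number tended to deviate together. Replicate number was left out of the main fits because the labels do not say that it marks a shared batch.

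All 44 genes could be named; library values were given for those with the largest change in their step and for those going against it that passed in some genotype (others going against it are given by change alone), and for DPAGT1 as the target of tunicamycin, which was added afterwards. Other pathway genes were named where called in all 3 genotypes in 1 direction. Members and lists were chosen with earlier results of these data known.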

Additional observations from a re-analysis of the deposited data

Results flagged for a closer look

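Each of 258 groups (43 genes in 6 groups of 4 or 6 libraries) was examined for a library whose gap to the nearest other exceeds Dixon's 95% critical value, and 6 were found; chance gives about 1 in 20 groups. MAGT1 read 223 CPM in tunicamycin-treated clone B7 replicate 1, where the other IGF2BP2 knockout libraries read 184 to 198 CPM. DOLK read 10.4 CPM in parental sample 1 replicate 2 in tunicamycin, below 12.3 to 12.6 CPM in the others. MOGS read 70.1 CPM in parental sample 1 replicate 1 in DMSO, above 65.5 to 66.2 CPM. OST4 read 12.3 CPM in parental sample 2 replicate 1 in DMSO, below 17.7 to 18.6 CPM. DHDDS read 36.9 CPM in the control library of clone G6 replicate 2, below 41.1 to 43.3 CPM. MPDU1 read 36.3 CPM in tunicamycin-treated clone B7 replicate 2, below 42.5 to 46.3 CPM.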

How the results depend on the processing

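No gene that passed changed direction in any alternative that was run. Medians near 0 did change sign, that of assembly in parental cells in 8 of 14 alternatives and that of the sugar donors in IGF2BP2 knockout cells in 5 of 18. With the replicate block 27 genes passed in parental, 26 in IGF2BP3 knockout and 29 in IGF2BP2 knockout cells, against 21, 24 and 26 without it. The genes added are named above. Over all genes the block added calls as well. In parental cells 2836 of 14398 rose and 3153 fell with it, against 1795 and 2059 without it. IGF2BP3 knockout cells had 2830 and 3150 of 14265, against 2311 and 2509. IGF2BP2 knockout cells had 3373 and 3689 of 14145, against 2718 and 2960. Leaving out a line or replicate gave 10 to 20 genes in parental cells, the lowest without parental sample 1. The parental oligosaccharyltransferase median then ran from 0.31 to 0.40, the parental glucose trimming median from 0.11 to 0.18 and that of IGF2BP3 knockout cells from 0.11 to 0.19. For IGF2BP3 knockout minus parental cells in tunicamycin 1 gene passed with DESeq2, 2 with the replicate block and 2 with DESeq2 and the block (an alternative chosen after seeing the data), against 0. Of all 14626 genes tested, 84 were higher and 186 lower with DESeq2, and 91 and 242 with the block. With both they were 184 and 356, against 17 and 88 in the main fit. The cause was not tested. In every alternative 10 of 21 parental, 19 of 24 IGF2BP3 knockout and 20 of 26 IGF2BP2 knockout calls were kept. TUSC3 was too low to be tested.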
